A study of Mus musculus with 6 samples.

Results

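The integrated stress response and the amino acid genes that its transcription factor ATF4 controls were followed in Neuro2a, an established line from a mouse neuroblastoma that stands in for neurons in culture. The members are a fixed list of 36 genes with roles in this response, chosen with earlier results of these data known. A member was taken as measured when the platform annotation gave its transcript cluster (the probe set of 1 locus) exactly 1 gene symbol, and clusters of the same gene were averaged. By this rule 35 of the 36 were measured, out of 16583 genes in all, and no cluster was annotated to Pycr1 alone. The design compared 3 arrays of cells transfected with an empty vector and 3 arrays of cells transfected with microRNA-type RNA interference vectors against USF1 and USF2. Both groups were the same line, the labels give a Lipofectamine reagent for the interference vectors, and each RNA was read once on an Affymetrix Mouse Gene 1.0 ST array. The sample titles call the 3 arrays of each group biological replicates. The labels do not give the share of cells that took up the vectors or the time after transfection. They also do not say how these replicates were made, such as from separate cultures. The p-values below therefore reflect only the spread between these arrays, and its technical part is not known. RNA came from whole cultures, in which fewer cells of a type and less RNA per cell cannot be told apart.

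The integrated stress response begins with a kinase that phosphorylates the translation initiation factor eIF2alpha. General protein synthesis then slows, while the mRNA of ATF4 is translated better. ATF4 binds composite sites for C/EBP and ATF proteins (CARE) and turns on genes for amino acid uptake and synthesis, further transcription factors such as CHOP (the product of Ddit3), and a phosphatase subunit that ends the response. Because ATF4 is controlled at translation, its mRNA is not a measure of its activity. USF1 and USF2 are transcription factors that bind the E-box CACGTG, and the study asked which genes lie downstream of them.

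The promoters of the members were searched for the letters of these sites, from 250 bases before to 50 after each RefSeq start (GRCm38.p6). The search read both strands for TGATGNAA (CARE), CACGTG (E-box) and TGACGTCA (the cyclic AMP response element, CRE), and no matches in the members' promoters overlapped. A promoter was at hand for 30 members. CARE letters lay in 7 of these 30 (23.3%), in 2.98% of the 13032 measured genes with a promoter and in 3.97% of all 32851 promoters of this length. Many of the members were listed because they are known ATF4 targets, so this share describes the list. The other promoters of the 30 held no such letters. The match of Trib3 lay after the start, at 15 bases. The 7 matches are shown with 10 bases on each side, on the strand that reads TGATGNAA and with the match in capitals.
Atf3, chr1:191183426-191183453, plus strand: gcggacttggTGATGCAAgtgcgagaag
Nupr1, chr7:126625563-126625590, plus strand: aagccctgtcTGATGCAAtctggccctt
Trib3, chr2:152344029-152344056, plus strand: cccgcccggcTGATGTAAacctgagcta
Chac1, chr2:119351039-119351066, minus strand: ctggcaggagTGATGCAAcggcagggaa
Vldlr, chr19:27216810-27216837, minus strand: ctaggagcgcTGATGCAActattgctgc
Asns, chr6:7693215-7693242, minus strand: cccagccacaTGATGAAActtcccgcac
Slc1a4, chr11:20332700-20332727, plus strand: aggctggagaTGATGCAAcgcaggaggc
The promoters of Atf3, Nupr1, Chac1, Vldlr and Slc1a4, 5 of the 7, shared the same letters, TGATGCAA.

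The E-box letters of the USF factors lay in 2 of the 30 promoters, 6.67%, against 10.6% of the measured genes with a promoter and 7.15% of all promoters. These were the promoters of Aldh18a1, an enzyme of proline synthesis, and Nupr1, a small stress-induced chromatin protein. The CRE letters were found in 1, that of Ppp1r15a (3.33% against 3.11% of genes and 1.79% of all promoters). They are printed on the strand of the gene, with the match in capitals.
Aldh18a1 E-box, chr19:40588507-40588532, minus strand: agggggccgcCACGTGgagcgtgggc
Nupr1 E-box, chr7:126625680-126625705, minus strand: gagagctttcCACGTGgaaaaacaca
Ppp1r15a CRE, chr7:45526263-45526290, minus strand: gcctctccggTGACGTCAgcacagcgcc
Nupr1 was the single member whose promoter held both an E-box and a CARE, so its 250 bases before the start are given on the strand of the gene, with both matches in capitals (the CARE reads TTGCATCA on this strand).
Nupr1, chr7:126625471-126625720, minus strand: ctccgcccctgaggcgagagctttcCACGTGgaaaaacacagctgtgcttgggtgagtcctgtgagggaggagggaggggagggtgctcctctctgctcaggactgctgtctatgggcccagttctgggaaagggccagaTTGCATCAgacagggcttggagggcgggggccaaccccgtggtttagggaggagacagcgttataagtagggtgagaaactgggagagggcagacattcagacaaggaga
For comparison, the 250 bases before the start of Ddit3, the member with the smallest p in the fit, held none of the 3 sets of letters.
Ddit3, chr10:127290543-127290792, plus strand: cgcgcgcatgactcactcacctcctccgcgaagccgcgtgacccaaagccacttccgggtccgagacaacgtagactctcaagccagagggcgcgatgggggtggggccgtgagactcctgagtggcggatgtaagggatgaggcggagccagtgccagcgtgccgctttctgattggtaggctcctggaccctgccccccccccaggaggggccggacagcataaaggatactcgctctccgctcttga
A match is a description of these letters, binding was not measured, and a promoter without a match can hold sites outside the window.

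The deposited values are on a scale read as log2, each cluster as a difference from its median across the 6 arrays, which allows comparison between arrays but keeps no expression level. Rounding of the numbers places a cluster in a dimmer class (signal of 4 to 8 on the log2 scale before centring) or a brighter one (8 to 16). Of the 35 members, 27 lay in the brighter class (77.1%, against 44.1% of all genes), 7 in the dimmer class, and Ppp1r15b had a cluster in each. Knockdown array 2 stood apart, with a standard deviation over all clusters of 0.159 against 0.0531 to 0.0780 on the other 5 arrays. On it the median gene of the dimmer class was 0.087 above the empty vector mean and that of the brighter class 0.037 below it (log2 scale). Both targets were lower after knockdown, as a check of the labels: Usf1 by -0.55 ± 0.07 and Usf2 by -0.38 ± 0.06 (log2 change ± SE, limma adjusted p = 0.320 and 0.348), with no overlap between groups (exact two-sided permutation p = 0.1 for each, the smallest that 3 against 3 arrays allow). Of 11 measured neuroblastoma and sympathetic neuron markers, 8 lay in the brighter class, among them Phox2a, Hand2, Gata3 and Isl1, while Th, Dbh and Nefl lay in the dimmer class. At an unadjusted p under 0.05, 0 of these 11 were higher and 2 lower after knockdown, against 1.60% and 2.65% of all genes. Both had all knockdown arrays below all empty vector arrays, as did 5.95% of all genes. They were Dbh, which makes noradrenaline from dopamine, at -0.25 ± 0.051 (SE, limma adjusted p = 0.759, unadjusted 0.00142), and the secretory granule protein Chgb at -0.15 ± 0.055 (SE, limma adjusted p = 0.996, unadjusted 0.028).

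None of the 35 members passed an adjusted p of 0.05 in limma, where 1 of all 16583 genes did (0.00603%), and the lowest adjusted p of a member was 0.794. Most members had a change above 0 without passing it. At an unadjusted p under 0.05, 6 of 35 members passed (17.1%, against 4.25% of all genes). All 6 were higher after knockdown, a direction found in 1.60% of all genes, and 0 were lower, against 2.65%. These 6 were Ddit3, Sesn2, Trib3, Ppp1r15a, Slc7a3 and Atf3. The change lay above 0 in 27 of 35 members (77.1%) and in 49.6% of all genes, and the median change was 0.045 against -6.6e-04. Among genes of the brighter class, where fewer lay above 0 (40.7%), 22 of 27 members did (81.5%), and 5 of 27 were higher at an unadjusted p under 0.05 (18.5%, against 1.46%) and 0 lower (3.52%). In 11 members (31.4%, against 4.33% of all genes) all 3 knockdown arrays lay above all 3 empty vector arrays, and in 0 they lay below (5.95%). Of these 11, 10 lay in the brighter class, 37.0% of its 27 members against 5.46% of its genes. Members share arrays and are not replicates of each other, and the list was chosen with earlier results of these data known. These shares therefore describe the list and are no test of it.

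**Figure D1:**
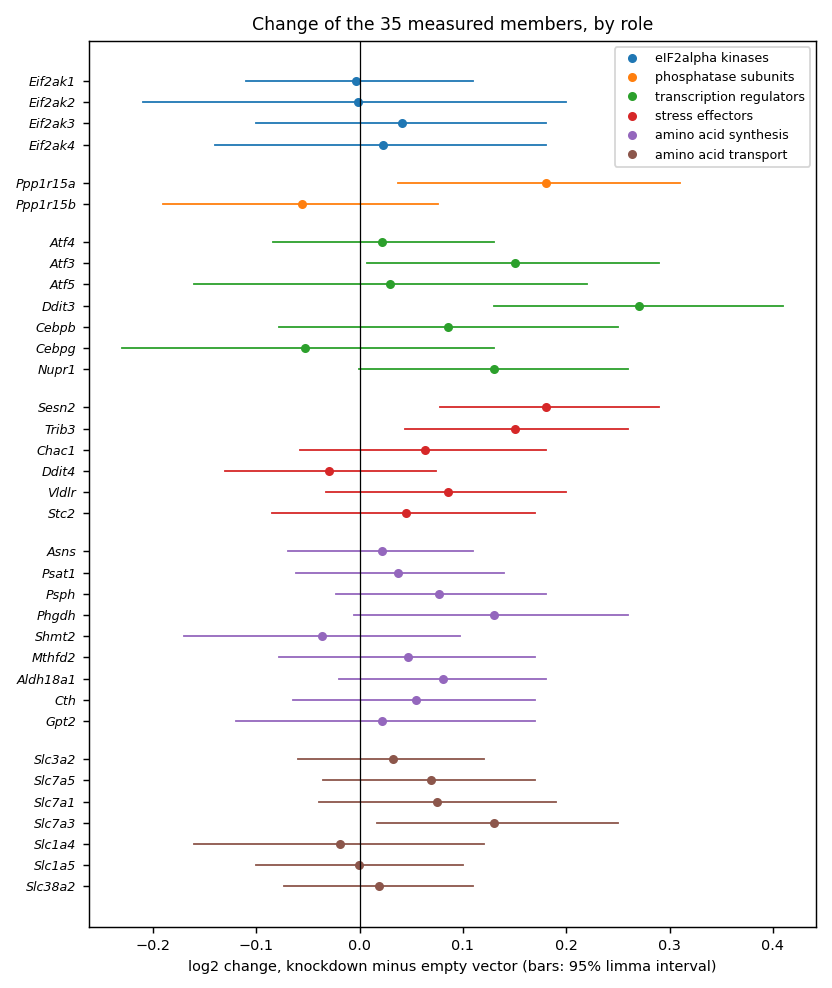
Log2 change from empty vector to knockdown (horizontal axis) for each of the 35 measured members, coloured by role, with points for the limma estimate and bars for its unadjusted 95% interval (3 arrays per group). The largest change is that of Ddit3 at 0.27, 27 points lie above 0, and the 4 kinases lie between -0.0031 and 0.041.

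The 4 eIF2alpha kinases, which start the response, had a median change of 0.011. Eif2ak3 encodes PERK, the sensor of unfolded protein in the endoplasmic reticulum. Its relative log2 signal was 0.00021, -0.0002 and -0.0059 on empty vector arrays 1, 2 and 3 and 0.15, -0.079 and 0.043 on knockdown arrays 1, 2 and 3. The knockdown arrays lay on both sides of the empty vector arrays, with a change of 0.041 (95% interval -0.10 to 0.18, limma adjusted p = 0.996). Eif2ak4 encodes GCN2, the sensor of uncharged tRNA. It read 0.0065, -0.0065 and -0.018 with empty vector and 0.031, -0.13 and 0.15 with knockdown, and knockdown array 2 was again the lowest of the 6. Its change was 0.023 (95% interval -0.14 to 0.18, limma adjusted p = 0.996). Eif2ak1 encodes HRI, the heme-regulated kinase that also relays mitochondrial stress. Its values were -0.054, 0.037 and 0.0032 with empty vector and -0.0032, -0.061 and 0.040 with knockdown, with overlapping groups and a change of -0.0031 (95% interval -0.11 to 0.11, limma adjusted p = 0.999). Eif2ak2 encodes PKR, the sensor of double-stranded RNA. It read 0.22, -0.092 and -0.041 with empty vector and 0.041, -0.075 and 0.11 with knockdown, so empty vector array 1 was the highest. Its change was -0.0016 (95% interval -0.21 to 0.20, limma adjusted p = 0.999), and it and Eif2ak4 were in the dimmer class. On knockdown array 2 all 4 kinases lay below their empty vector mean, and on knockdown arrays 1 and 3 all 4 lay above it. The sign of each of the 4 changes turned under at least 1 alternative setting, so none is given a direction here. The intervals leave room for changes of 0.1 to 0.2 either way. Eif2ak3 kept its sign in 12 of 13 alternatives, but some of them, such as robust variance and the replicate block, cannot move its 0.041. Without knockdown array 1 its change was -0.016. Eif2ak3 passed an adjusted p of 0.05 only with array quality weights (0.15, limma adjusted p = 0.0334). There knockdown array 1, its highest, had a weight of 33.

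The transcription regulators had the highest median change of the roles with over 2 members, 0.086 over 7 genes, with 6 above 0 and 2 at an unadjusted p under 0.05. Atf4 itself read -0.023, 0.014 and -0.014 with empty vector and 0.039, -0.051 and 0.054 with knockdown. The groups overlapped, and its change was 0.022 ± 0.046 (SE, 95% interval -0.084 to 0.13, limma adjusted p = 0.996). Ddit3 encodes CHOP, a C/EBP family factor that ATF4 induces and that promotes cell death under lasting stress. It read -0.21, -0.065 and -0.14 on empty vector arrays 1, 2 and 3 and 0.065, 0.10 and 0.22 on knockdown arrays 1, 2 and 3. All knockdown arrays lay above all empty vector arrays, with empty vector array 1 the lowest and knockdown array 3 the highest. The change was 0.27 ± 0.059 (SE), or 1.21-fold (95% interval 1.10 to 1.33), with a limma adjusted p of 0.794 over all genes (unadjusted 0.00206). It was larger than that of 99.9% of all genes.

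Atf3, a stress-induced factor that can repress ATF4 targets, read -0.16, 0.0079 and -0.11 with empty vector and 0.14, 0.049 and -0.0079 with knockdown. The groups overlapped, since empty vector array 2 lay above knockdown array 3. Its change was 0.15 ± 0.061 (SE, limma adjusted p = 0.996, unadjusted 0.042). Nupr1 read -0.11, -0.019 and -0.01 with empty vector and 0.067, 0.01 and 0.17 with knockdown. The groups did not overlap, but the change of 0.13 ± 0.056 (SE) had an unadjusted p just above 0.05 (limma adjusted p = 0.996, unadjusted 0.0506). The C/EBP factors, which form dimers with ATF4 at CARE sites, differed in sign. Cebpb was at 0.086 ± 0.071 and Cebpg at -0.053 ± 0.078 (SE), and their difference was not tested. Atf5, a relative of ATF4 with the same kind of translational control, was at 0.029 ± 0.082. All 3 overlapped between groups and lay in the dimmer class, and the signs of Atf5 and Cebpg turned under other settings.

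**Figure D2:**
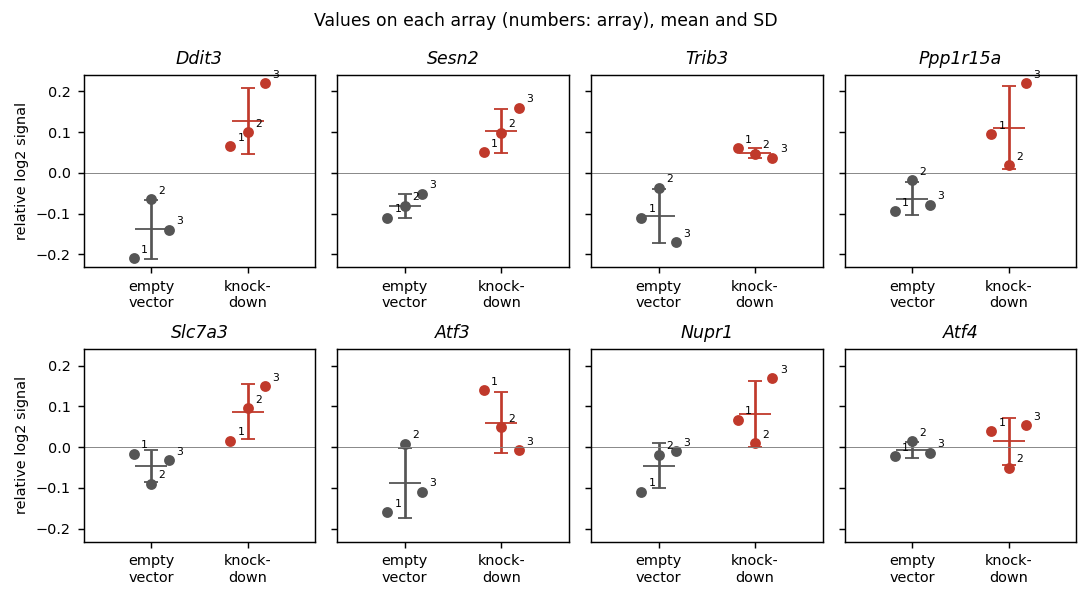
Relative log2 signal (vertical axis, each gene relative to its own median) on the 3 empty vector arrays (grey) and 3 knockdown arrays (red) for 8 members, with the array number beside each point and bars for the mean and SD. The groups do not overlap for Ddit3, Sesn2, Trib3, Ppp1r15a, Slc7a3 and Nupr1, and they overlap for Atf3 and Atf4.

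The stress effectors had a median change of 0.074 over 6 genes, with 5 above 0. Sesn2 encodes sestrin 2, which holds back mTORC1 when leucine is short. It read -0.11, -0.081 and -0.051 with empty vector and 0.051, 0.099 and 0.16 with knockdown. The groups were separate, and the change of 0.18 ± 0.046 (SE) was 1.14-fold (95% interval 1.06 to 1.22, limma adjusted p = 0.911, unadjusted 0.00408). Trib3, a pseudokinase that binds ATF4 and CHOP and dampens them, read -0.11, -0.037 and -0.17 with empty vector and 0.061, 0.047 and 0.037 with knockdown. Its knockdown arrays lay close together, all above the empty vector arrays. The change was 0.15 ± 0.047 (SE), or 1.11-fold (95% interval 1.03 to 1.20, limma adjusted p = 0.996, unadjusted 0.0119). The other 4 overlapped between groups. Vldlr, a lipoprotein receptor, was at 0.086 ± 0.051 (SE), the glutathione-degrading enzyme Chac1 at 0.063 ± 0.052, and the secreted glycoprotein Stc2 at 0.045 ± 0.056, whose sign turned under another setting. Ddit4, an inhibitor of mTORC1 that also responds to hypoxia and glucocorticoids, was the single effector below 0, at -0.030 ± 0.045.

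The 2 phosphatase subunits, which recruit protein phosphatase 1 to reverse eIF2alpha phosphorylation, differed in sign. Ppp1r15a encodes GADD34, the subunit induced by ATF4 and CHOP. It read -0.095, -0.018 and -0.078 with empty vector and 0.095, 0.018 and 0.22 with knockdown. The groups did not overlap, and the change was 0.18 ± 0.060 (SE) or 1.13-fold (95% interval 1.03 to 1.24, limma adjusted p = 0.996, unadjusted 0.0196). It lay in the dimmer class, whose median gene was raised on knockdown array 2, and its lowest knockdown value was on that array. The part of the array's shift in this change was not tested. Ppp1r15b, the subunit present without stress, read -0.11, 0.058 and 0.062 with empty vector and -0.083, -0.047 and -0.031 with knockdown. Its change was -0.056 ± 0.057 (SE), and its clusters were at -0.075 (brighter) and -0.038 (dimmer). The difference between the 2 subunits was not tested.

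The amino acid synthesis genes had a median change of 0.047 over the 9 measured of 10 listed, with 8 above 0 and 0 at an unadjusted p under 0.05. All 9 lay in the brighter class. The highest change was in the serine pathway. Phgdh, its first enzyme, read -0.060, 0.016 and -0.13 with empty vector and -0.016, 0.12 and 0.11 with knockdown, and knockdown array 1 lay within the empty vector range. The change was 0.13 ± 0.057 (SE, limma adjusted p = 0.996, unadjusted 0.0576). Psph, the last enzyme of the pathway, was at 0.077 ± 0.044 and Psat1, the transaminase between them, at 0.037 ± 0.043. Aldh18a1, which begins proline synthesis from glutamate, was at 0.081 ± 0.043. For Psph and Aldh18a1 the groups did not overlap, though knockdown array 1 lay above empty vector array 1 by under 0.01 in each. Of the mitochondrial one-carbon enzymes, Mthfd2 was at 0.047 ± 0.054 and Shmt2, the single synthesis gene below 0, at -0.036 ± 0.057. Asns, the asparagine synthetase that is a classic ATF4 target, was at 0.022 ± 0.039 (95% interval -0.069 to 0.11), the transsulfuration enzyme Cth at 0.055 ± 0.052, and the alanine transaminase Gpt2 at 0.022 ± 0.062, whose sign turned under other settings.

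Among the 7 transporters, all in the brighter class, the median change was 0.032, with 5 above 0 and 1 at an unadjusted p under 0.05. That was Slc7a3, a carrier of arginine and lysine. It read -0.016, -0.09 and -0.032 with empty vector and 0.016, 0.095 and 0.15 with knockdown. The groups were separate, with a change of 0.13 ± 0.050 (SE) or 1.10-fold (95% interval 1.01 to 1.19, limma adjusted p = 0.996, unadjusted 0.0292). Its relative Slc7a1 was at 0.075 ± 0.049, Slc7a5, the light chain of the large neutral amino acid exchanger, at 0.069 ± 0.045, and Slc3a2, the heavy chain it pairs with, at 0.032 ± 0.039. These 3 did not overlap between groups either, so 4 of 7 transporters did not (57.1%, against 5.46% of genes of the brighter class). The groups nearly touched, with array 1 of empty vector and knockdown at -0.0021 and 0.0021 for Slc3a2. For Slc7a5 these arrays were at -0.0053 and 0.0053. The other 3 transporters carry small neutral amino acids. Slc38a2 was at 0.019 ± 0.040, Slc1a4 at -0.019 ± 0.060 and Slc1a5 at -4.5e-04 ± 0.044, all with overlapping groups, and the signs of Slc1a4 and Slc1a5 turned under other settings.

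The members' values differed between the arrays of a group. The median of the 35 members relative to their empty vector mean was 0.038, 0.036 and 0.078 on knockdown arrays 1, 2 and 3, with 28, 23 and 32 members above it. On empty vector arrays 1, 2 and 3 it was -0.0051, 0.0018 and 0.0061. Knockdown array 3 held the highest value of 18 members (51.4%, against 14.1% of all genes), and empty vector array 1 the lowest value of 14 (40.0%, against 15.1%). On empty vector array 1 the phosphatase subunits (median -0.073), transcription regulators (-0.070) and effectors (-0.045) were low, while synthesis (0.017) and transport (0.022) were not. The members at no unadjusted p under 0.05, 29 in number, still had 21 changes above 0 and a median of 0.032, with medians of 0.032, 0.015 and 0.061 on the 3 knockdown arrays.

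**Figure D3:**
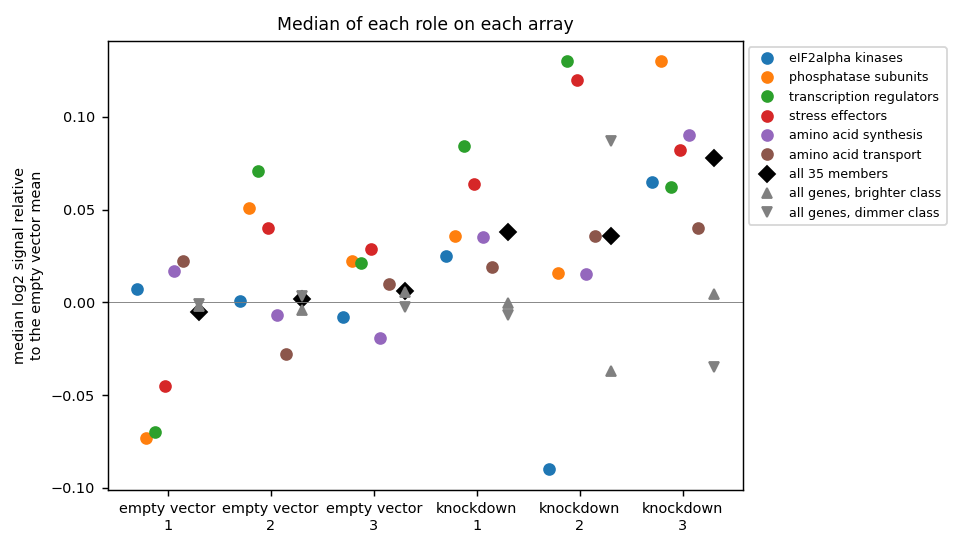
Median log2 signal relative to the empty vector mean (vertical axis) on each of the 6 arrays, for each role (coloured circles), for all 35 members (black diamonds) and for all genes of the brighter and dimmer class (grey triangles). The diamonds sit at 0.038, 0.036 and 0.078 on the knockdown arrays, and the kinases sit at -0.09 on knockdown array 2.

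Leaving out each array in turn kept the change of all 6 members above 0. For all but Atf3 the groups did not overlap, so this sign could not turn. The 6 were also picked by their p on these same arrays, which favours large changes and small p-values. The sizes and p-values below reuse those arrays, so they are no further test. They describe only how far each change rested on 1 array. Ddit3 lay between 0.22 and 0.31 and Sesn2 between 0.16 and 0.21, and both kept an unadjusted limma p under 0.05 in 6 of 6 such fits. Trib3 (0.12 to 0.19) kept it in 5 fits, all but that without empty vector array 3, while Ppp1r15a (0.12 to 0.22), Slc7a3 (0.10 to 0.17) and Atf3 (0.11 to 0.19) kept it in 3 each. Without empty vector array 3 the count of 6 members was 2, Ddit3 and Sesn2, and the share of all genes higher at this p was 0.959% in place of 1.60%. No member passed the adjusted threshold in any of these fits. The median over all members lay between 0.037 and 0.064.

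**Figure D4:**
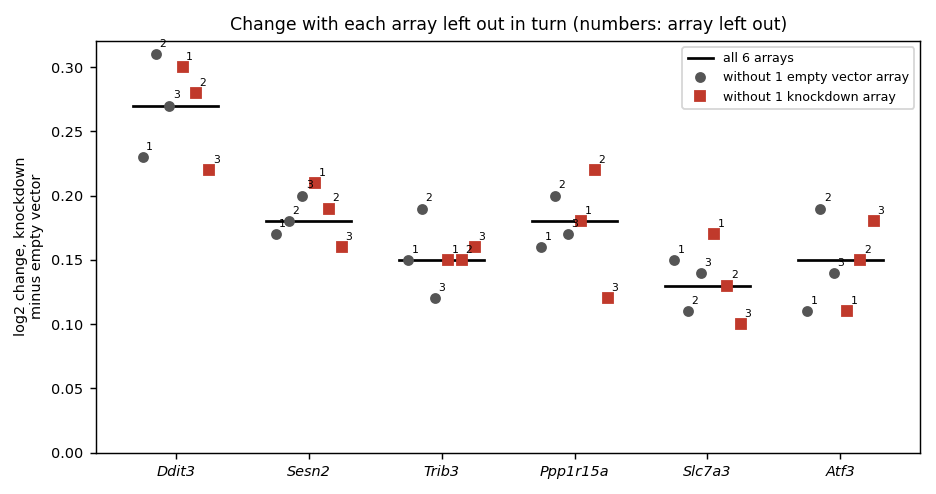
Log2 change from empty vector to knockdown (vertical axis) of the 6 members at an unadjusted p under 0.05, with all 6 arrays (black line) and with each array left out (circles for empty vector arrays, squares for knockdown arrays, numbered by the array left out). All points lie above 0, which groups without overlap fix in advance for all but Atf3, and those of Ddit3 stay between 0.22 and 0.31.

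Other genes of the pathway came from lists outside the 36. Of 67 listed, 62 were measured. At an unadjusted p under 0.05, 1 was higher (1.61%, against 1.60% of all genes) and 1 was lower (against 2.65% of all genes). The share higher at this p was thus close to that of all genes. In 8 of the 62 all knockdown arrays lay above all empty vector arrays (12.9%, against 4.33% of all genes). In 5 they lay below (against 5.95% of all genes). Of the 62, 47 lay in the brighter class, where 5.46% of genes had all knockdown arrays above and 40.7% had a change above 0. Changes lay above 0 in 35 (56.5%, against 49.6% of all genes), with a median of 0.019. The higher one was Xpot, the nuclear export receptor of tRNA and an ATF4 target, which read -0.043, -0.05 and -0.076 with empty vector and 0.043, 0.05 and 0.15 with knockdown, a change of 0.14 ± 0.046 (SE, limma adjusted p = 0.996, unadjusted 0.0179). The lower one was Tyms, the thymidylate synthase of DNA synthesis, at -0.11 ± 0.046 (SE, limma adjusted p = 0.996, unadjusted 0.0499). The aminoacyl-tRNA synthetases, which load amino acids onto tRNA and many of which ATF4 induces, had 14 of 18 changes above 0 (77.8%). Their median was 0.036 and their highest value 0.085, and all 18 lay in the brighter class. Of 11 further ATF4 targets, 8 of them in the brighter class, 7 lay above 0 (63.6%, median 0.016). Pck2 was at 0.068 ± 0.053 and the cystine carrier Slc7a11 at -0.010 ± 0.072. The one-carbon enzymes had 6 of 9 above 0 (66.7%, median 0.021), with 6 in the brighter class. The subunits of eIF2 and of its exchange factor eIF2B and the regulators beside them had 3 of 11 above 0 (27.3%, median -0.027). The remaining amino acid transporters had 5 of 13 (38.5%, median -0.0044). In the brighter class lay 10 of these 11 and 5 of these 13. Differences between these lists and the members were not tested.

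Markers of other cell types were read beside these results. Of 6 glial, 7 fibroblast, 5 macrophage and 8 endothelial or epithelial markers measured, 23 of 26 lay in the dimmer class. At an unadjusted p under 0.05, 0 were higher and 1, Acta2, was lower, against 1.60% and 2.65% of all genes. Changes lay above 0 in 6 of 6 glial, 5 of 7 fibroblast, 5 of 5 macrophage and 5 of 8 endothelial or epithelial markers, with medians of 0.084, 0.024, 0.057 and 0.028. On knockdown array 2 the medians of these lists relative to the empty vector mean were 0.17, 0.25, 0.074 and 0.088, and 228 olfactory receptor genes had 0.16. On knockdown array 3, where the members were highest, they had 0.036, -0.13, 0.022 and -0.028, and the olfactory receptor genes -0.065. Without knockdown array 2 the median of the members was 0.054 and 7 of 35 were higher at an unadjusted p under 0.05, while the share of all genes higher at this p was 2.51% in place of 1.60%. The part of other cells in the result was not tested.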

How the data were processed

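The table deposited by the authors holds 22891 transcript clusters on 6 arrays as log2 values, each relative to the cluster's median over the arrays. That the scale is log2 was read from the rounding step of the numbers. How the authors corrected background and normalized arrays is not given in the sources used here. RNA was prepared with a Qiagen RNeasy kit and labelled with kits from Ambion and Affymetrix, per the labels' protocols. Names came from the platform annotation (18087 clusters with 1 symbol, 1145 with several, 3659 unnamed), with older symbols in the lists updated through RefSeq. Groups came from the sample titles.

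Changes are knockdown minus empty vector, fitted over all 16583 genes in limma 3.58.1 (lmFit, then eBayes, R 4.3.3), with Benjamini-Hochberg adjustment over all of them. The fit had 4 residual and 3.79 prior degrees of freedom. Arrays can understate folds. Precision is limited by the number of arrays (median standard error 0.0561). The fit was tested on simulated data. Brightness classes (tolerance 0.05 of a step), promoter searches and figures used Python 3.11.15.

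The members and lists were chosen with earlier results of these data known. Full values are given for members at an unadjusted p under 0.05, Atf4 and the kinases. Full values of Nupr1, Phgdh and Ppp1r15b, and the sequences shown, were chosen after values were seen. Alternatives were quantile normalization, median centring, brighter clusters only, genes with 1 cluster, robust variance, array quality weights, a replicate block and leaving out each array.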

Additional observations from a re-analysis of the deposited data

How the results depend on the processing

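The count of 0 members past an adjusted p of 0.05 held in 12 of 13 alternatives, and at an unadjusted p under 0.05 limma counted 6. With array quality weights 6 members passed, namely Ddit3, Sesn2, Trib3, Ppp1r15a, Atf3 and the kinase gene Eif2ak3. At an unadjusted p under 0.05, that fit had 9 members higher and 2 lower, against 11.0% and 15.3% of all genes, and Usf1 and Usf2 passed at -0.62 and -0.46. Those weights were 33, 0.136 and 0.441 on knockdown arrays 1, 2 and 3, so that fit's knockdown mean was close to that of array 1, and it called 1111 of all genes. Leaving out 1 array at a time, 2 to 7 members were higher and 0 to 1 lower at an unadjusted p under 0.05, where 0.959% to 3.70% of all genes were higher and 1.27% to 5.01% lower. The median change lay between 0.037 and 0.064 over all alternatives, and 25 of 35 members kept their sign in each. Part of this was fixed in advance. Robust variance and the replicate block cannot move a change. For the 11 members without overlap between groups, leaving out an array cannot turn the sign. The labels link arrays between groups by no more than a number. Deviations of same-numbered arrays correlated at 0.00311, 0.0819 and 0.0364. Empty vector arrays 2 and 3 correlated best with the knockdown array of the same number, and empty vector array 1 with knockdown array 3 (0.0535). With replicate number as a block, 5 members were higher at an unadjusted p under 0.05 (1.48% of all genes) and the median change was 0.045.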
